A study of Rattus norvegicus and Ovis aries with 113 samples.

Results

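FMR1, a gene tied to disease of both brain and ovary, was examined in brain and reproductive samples of sheep and rats. Its autosomal relatives FXR1 and FXR2 and the partner genes CYFIP1 and CYFIP2 were examined with it. The genes were found by symbol, ignoring case, and all 5 were present among the 31304 genes of the sheep table and the 38675 of the rat table. The study looked for genes that act in both neurological and reproductive functions, and sequenced stranded mRNA libraries. Sheep samples came from 5 males past puberty, numbered 687, 688, 690, 694 and 699, each giving sperm and 10 brain regions of one hemisphere. Rats were Sprague Dawley: 15 males past puberty gave whole brain and seminal fluid, labelled sperm here, and 14 females gave whole brain and ovary. No treatment is named for any animal. Nothing in the sources used here says that sperm were purified from other cells, and the cycle stage of the females is not stated.

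FMRP, the product of FMR1, binds messenger RNAs in neurons and represses their translation, and FXR1 and FXR2 encode paralogs with the same kinds of RNA-binding domain. Silencing of FMR1 causes fragile X syndrome, a form of intellectual disability, while a moderate expansion of the repeat at its start is linked to tremor and ataxia and to early loss of ovarian function. CYFIP1 and CYFIP2 bind FMRP and are also alternative subunits of the WAVE regulatory complex, which starts branched actin growth when the GTPase RAC1 activates it.

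In the rat assembly GRCr8, Fmr1 lies on chromosome X from 152284857 to 152322686, Fxr1 on chromosome 2 from 118812287 to 118865813, and Fxr2 on chromosome 10 from 54849345 to 54869713. Cyfip1 lies on chromosome 1 from 115842754 to 115935163, and Cyfip2 on chromosome 10 from 31122653 to 31242440. All 5 are annotated as protein-coding. Fmr1 and Fxr2 overlap no other annotated gene. Fxr1 overlaps Dnajc19, Cyfip1 overlaps Nipa1, a pseudogene and a small nuclear RNA, and Cyfip2 overlaps Fndc9 and a long noncoding RNA. Whether reads were assigned by strand is not stated, so reads of these 3 genes cannot be told apart from reads of their neighbours where they overlap. Positions in the sheep genome were not used here.

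The stretches below show the rat promoter windows of Fmr1, for which the group is named, and of Cyfip2, which had the largest difference between brain and ovary, up to the annotated start of each gene. They are RefSeq sequences of GRCr8, written 5′ to 3′ on the strand of the gene: the plus strand of chrX:152284680-152284856 and the minus strand of chr10:31242441-31242690. Capitals mark matches, on either strand, to GGGCGG (Sp1), CACGTG (an E-box) and the longer NRF1 motif, which is the first run of capitals in Fmr1.
Fmr1: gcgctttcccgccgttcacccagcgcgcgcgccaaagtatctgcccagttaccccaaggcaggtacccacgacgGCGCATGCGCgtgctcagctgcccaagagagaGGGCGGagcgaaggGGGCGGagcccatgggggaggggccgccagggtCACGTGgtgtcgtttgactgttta
Cyfip2: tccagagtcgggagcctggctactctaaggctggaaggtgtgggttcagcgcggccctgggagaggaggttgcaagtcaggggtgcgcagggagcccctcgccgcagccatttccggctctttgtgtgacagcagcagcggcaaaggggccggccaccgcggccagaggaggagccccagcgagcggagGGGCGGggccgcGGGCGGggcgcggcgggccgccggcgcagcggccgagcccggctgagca

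RefSeq's windows span 300 bases, from 250 before to 50 after the start its table uses, which is not the annotated gene start for every gene. The bases before the annotated gene number 177 for Fmr1, 58 for Fxr1, 250 for Cyfip2 and 0 for Fxr2 and Cyfip1, whose windows lie inside the gene. Over the full windows, the Sp1 letters were present for all 5 genes, as in 33.1% of 33469 rat windows. The NRF1 letters were in 0.852% of all windows and the E-box letters in 6.42%, and among the 5 only the Fmr1 window held them. GC content was 68.7% for Fmr1, 75.0% for Fxr1, 79.3% for Fxr2, 70.0% for Cyfip1 and 75.0% for Cyfip2, against a median of 51.7% over all windows. A match describes letters only.

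Library totals were 46.7 to 72.4 (in units of 1000000 counts) in sheep brain, 13.7 to 65.1 in sheep sperm, 38.2 to 119 in rat brain, 50.5 to 60.3 in ovary and 13.7 to 65.1 in rat sperm. Entries of ribosomal RNA type held 22.4 to 85.2% of the counts in sheep sperm, and up to 86.9% in a rat brain library. Levels are therefore given as counts per 1000000 (CPM) on totals scaled by trimmed means of M values (TMM). CPM is not divided by gene length, so levels of different genes are not compared. A gene is called when its edgeR quasi-likelihood p, adjusted by Benjamini-Hochberg over all genes tested, is below 0.05. The labels number the animals but do not describe separate preparations, so p-values measure the spread between these samples. Unless a replicate block or summed regions are named, the edgeR fits had no term for the animal. The 50 brain libraries of 5 sheep were then taken as independent, as were same-numbered rat samples. With the regions of each sheep summed, 14824 genes were called in sheep sperm, against 18225 without.

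Markers of other cells were measured beside the 5 genes. In bulk samples, fewer cells of a type and less RNA per cell cannot be told apart. In sheep sperm the 7 late spermatid and sperm markers summed to 202 to 6560 CPM, while the 5 leukocyte markers summed to 13700 to 158000 CPM and the 5 squamous epithelial markers summed to 8390 to 150000 CPM. A sum can rest on few of its markers: NCKAP1L of the leukocyte list was not called in sheep sperm (log2 -0.35, edgeR adjusted p 0.363). The 4 microglial markers summed to 9.88 to 112 CPM there. In rat sperm the late spermatid and sperm markers summed to 205 to 23400 CPM, and the 6 epididymal and accessory gland markers to 185 to 1020 CPM. In ovary the 5 granulosa markers summed to 755 to 3000 CPM and the 4 luteal and theca markers to 2640 to 7910 CPM. Neuronal markers summed to at most 19.2 CPM in rat sperm and 35.3 CPM in ovary, and to at least 3860 CPM in rat brain. In sheep, where 5 of the 6 neuronal markers were present, they summed to at most 117 CPM in sperm. The lowest sheep brain library, from pons, had 259 CPM of them. Their part in the differences below was not tested.

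Within the sheep brain, pons, cerebellum and basal ganglia held most of the highest and lowest means. Pons had the most FXR1 and the least CYFIP2, and cerebellum had the most FMR1 and FXR2 and the least CYFIP1. Basal ganglia had the least FMR1 and FXR1 and the most CYFIP2. All 5 genes differed among the regions, with edgeR adjusted p-values from 3.26e-08 for CYFIP2 to 0.000383 for FMR1, where 76.7% of 21147 genes did. Each region was then contrasted with the average of the remaining 9. Of these 50 tests, 11 were called, 6 higher and 5 lower, and 1 of them was past 2-fold. The same rule called 18.5% of tests over all genes and regions, and 7.63% were also past 2-fold.

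**Figure D1:**
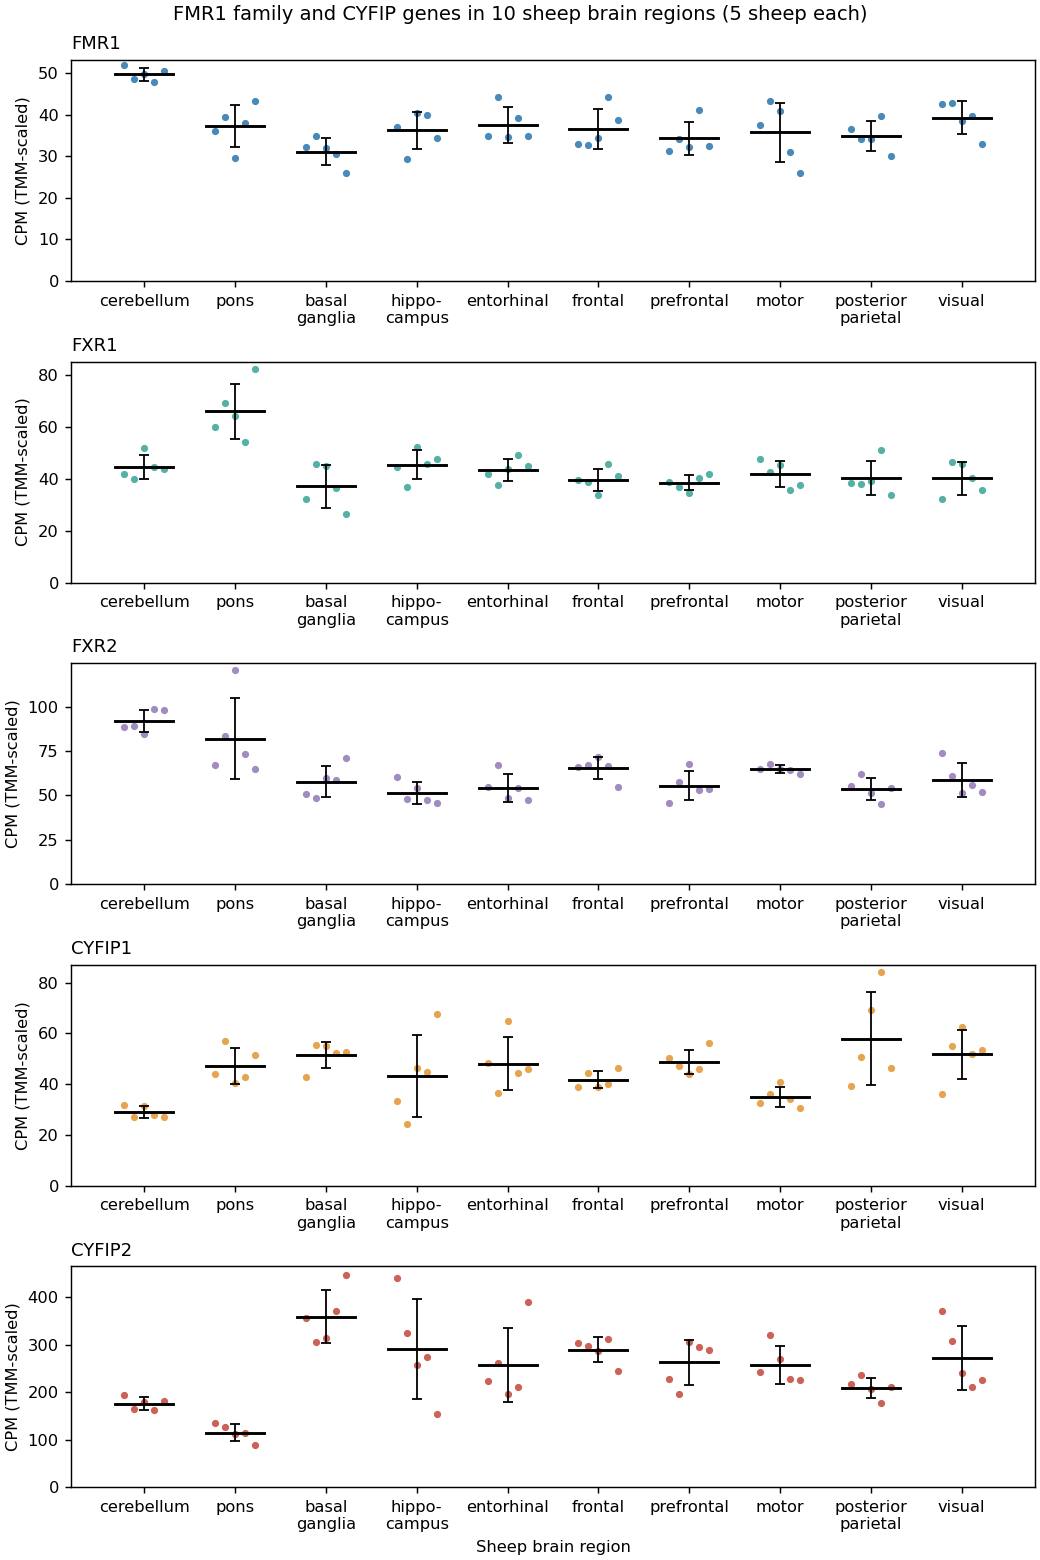
Levels of the 5 genes in 10 brain regions of 5 sheep, as TMM-scaled CPM. Each point is a library; for FMR1 the cerebellum libraries (47.8 to 51.8 CPM) lie above those of all other regions, and for CYFIP2 the pons libraries (88.2 to 135.6 CPM) lie below them.

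FMR1 was highest in cerebellum, with 51.8, 48.6, 49.8, 47.8 and 50.5 CPM in sheep 687, 688, 690, 694 and 699. All 5 values lay above every library of the other regions, and cerebellum was the highest region in 5 of 5 sheep. The log2 fold change against the other regions was 0.45 ± 0.08 (SE, edgeR adjusted p 4.99e-06). Among all genes, 60.7% were called in cerebellum and 6.73% lay wholly above the other regions there. FMR1 was lowest in basal ganglia, at 31.1 CPM ± 3.28 (SD, n = 5), and its difference from the other regions was -0.27 ± 0.09 (SE, log2, edgeR adjusted p 0.0161), where 27.6% of genes were called. Without sheep 694 that call was lost (-0.235, edgeR adjusted p 0.0801). The other 8 regions had overlapping neighbours in the order of their means, and none was called.

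FXR1, a paralog with a known role in muscle, was highest in pons. Its 5 values there were 60.0, 69.1, 64.1, 54.0 and 82.2 CPM in the order of the sheep numbers, above every library of the other regions. Against the other regions the log2 difference was 0.72 ± 0.09 (SE, edgeR adjusted p 1.28e-08), with pons highest in 5 of 5 sheep. In pons 48.3% of genes were called and 0.998% lay wholly above the other regions. The remaining means ran from 45.3 CPM in hippocampus to 37.0 CPM in basal ganglia, with overlapping neighbours and no call. Basal ganglia (-0.23, edgeR adjusted p 0.0796) passed the threshold without sheep 688 (-0.33, 0.0298) or 690 (-0.30, 0.0496).

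FXR2, whose product can associate with FMRP, was higher in both hindbrain regions. In cerebellum it was 88.9, 89.4, 84.9, 98.8 and 98.5 CPM, and in pons 67.4, 83.7, 120.8, 73.3 and 65.0 CPM. Cerebellum was narrow, while pons held the highest library of all, that of sheep 690, beside values that overlapped the cortex. Log2 fold changes were 0.60 ± 0.09 in cerebellum and 0.47 ± 0.09 in pons (SE, edgeR adjusted p 1.3e-07 and 2.39e-05), and leaving out 1 sheep at a time gave 0.29 to 0.53 in pons. Hippocampus was lowest, at 51.3 CPM ± 6.16 (SD, n = 5), and differed from the rest by -0.31 ± 0.10 on the log2 scale (SE, edgeR adjusted p 0.0263), where 11.0% of genes were called. That call was lost without sheep 688 (-0.28, adjusted p 0.123), 694 (-0.30, 0.13) or 699 (-0.29, 0.0791) in the edgeR fit.

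CYFIP1, whose product also binds the cap-binding protein EIF4E, was lowest in cerebellum. The values were 31.8, 27.2, 31.4, 27.9 and 27.2 CPM, and cerebellum was the lowest region in 4 of 5 sheep. Its log2 difference was -0.71 ± 0.14 (SE, edgeR adjusted p 4.27e-05). Libraries of motor cortex and hippocampus reached down to 30.8 and 24.4 CPM, so the ranges overlapped. Posterior parietal cortex was highest with 39.1, 50.7, 69.3, 84.0 and 46.3 CPM, 0.42 ± 0.13 higher on the log2 scale (SE, edgeR adjusted p 0.0288), where 10.4% of genes were called. Sheep 690 and 694 were high there, and without them in turn the values were 0.37 and 0.23 (edgeR adjusted p 0.141 and 0.44).

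CYFIP2, mutated in an early epileptic encephalopathy, varied most among regions, with a 3.12-fold range between the highest and the lowest mean. The corresponding ranges were 1.6 for FMR1, 1.78 for FXR1, 1.8 for FXR2 and 1.99 for CYFIP1. Pons was lowest in 5 of 5 sheep, with 135.6, 126.6, 112.3, 113.9 and 88.2 CPM. These values lay below every library of the other regions, which held for 1.83% of genes. On the log2 scale the difference was -1.13 ± 0.15 (SE, edgeR adjusted p 2.13e-08), or 2.19-fold. Cerebellum was next, at 163.2 to 194.5 CPM (log2 -0.51 ± 0.14, edgeR adjusted p 0.00182), and its call was lost on plain library totals (-0.29, 0.0697).

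CYFIP2 was highest in basal ganglia, at 355.5, 306.4, 315.2, 371.9 and 447.0 CPM, 0.67 ± 0.13 above the others on the log2 scale (SE, edgeR adjusted p 4.75e-05). Hippocampus ranged from 154.4 CPM in sheep 699 to 441.5 CPM in sheep 687 and was not called (0.32, edgeR adjusted p 0.108), but was without sheep 699 (0.49, 0.0031). Frontal cortex likewise passed only without sheep 699 (0.35, edgeR adjusted p 0.0422).

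Markers of glia and neurons differed between these regions too. The 4 oligodendrocyte markers summed to 15000 to 74400 CPM in pons, against medians of 2470 to 6440 CPM in the other regions. Libraries of motor cortex and basal ganglia reached 27100 and 16900 CPM, above the lowest pons library. The 4 astrocyte markers summed to 12700 to 17400 CPM in pons and to at most 9160 CPM elsewhere. Neuronal markers had their lowest median in pons, 956 CPM, and their highest in cerebellum, 3640 CPM. Granule neuron markers summed to 925 to 1120 CPM in cerebellum and to at most 50.8 CPM elsewhere. The 4 microglial markers summed to 14.8 to 41.2 CPM in cerebellum, where CYFIP1 was lowest, and to at least 55.2 CPM elsewhere. In posterior parietal cortex, where CYFIP1 was highest, they summed to 140, 130, 241, 249 and 163 CPM in the order of the sheep numbers. Their part in the regional differences was not tested. Of the 10 genes of the WAVE complex and RAC1, 0 were called higher and 5 lower in cerebellum (median log2 fold change -0.42, all genes -0.04), and 1 higher and 6 lower in pons (-0.43, all genes 0.03). Over all 21147 genes, 60.7% were called in cerebellum (6150 higher and 6689 lower) and 48.3% in pons (5440 higher and 4771 lower). The list had 2 higher and 1 lower in basal ganglia, 2 and 0 in hippocampus, 1 and 0 in posterior parietal cortex, and 0 called in the other 5 regions.

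The 5 genes did not share 1 regional pattern. Over the 10 region means of log2(CPM + 1), Pearson's correlation was 0.70 between FMR1 and FXR2, 0.28 between FMR1 and FXR1, 0.18 between CYFIP1 and CYFIP2, and -0.87 between FXR1 and CYFIP2. These are descriptions, since all means come from the same 50 libraries. The genes most like FMR1 were CSGALNACT2 (0.99), PPP4R2 (0.98) and ZBTB38 (0.98). Those most like FXR1 were CEP152 (0.99), PAEP (0.98) and HSD17B12 (0.98), and those most like FXR2 were DHX15 (0.99), YJU2B (0.98) and NSUN2 (0.97). CYFIP1 was most like ITIH5 (0.98), CCDC141 (0.97) and GAB3 (0.97), and CYFIP2 most like BAG2 (0.99), NLGN1 (0.98) and PPP3R1 (0.98). They are the highest of 21147 genes over 10 points.

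In the rat ovary, CYFIP2 was far below the brain, and FMR1 and CYFIP1 were above it. All 5 genes were called, 3 higher and 2 lower, where 88.6% of 20801 genes were called, 44.7% higher and 43.9% lower. CYFIP2 alone was past 2-fold, as were 56.9% of all genes. Groups of more than 5 libraries are given below as lowest, median and highest value.

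**Figure D2:**
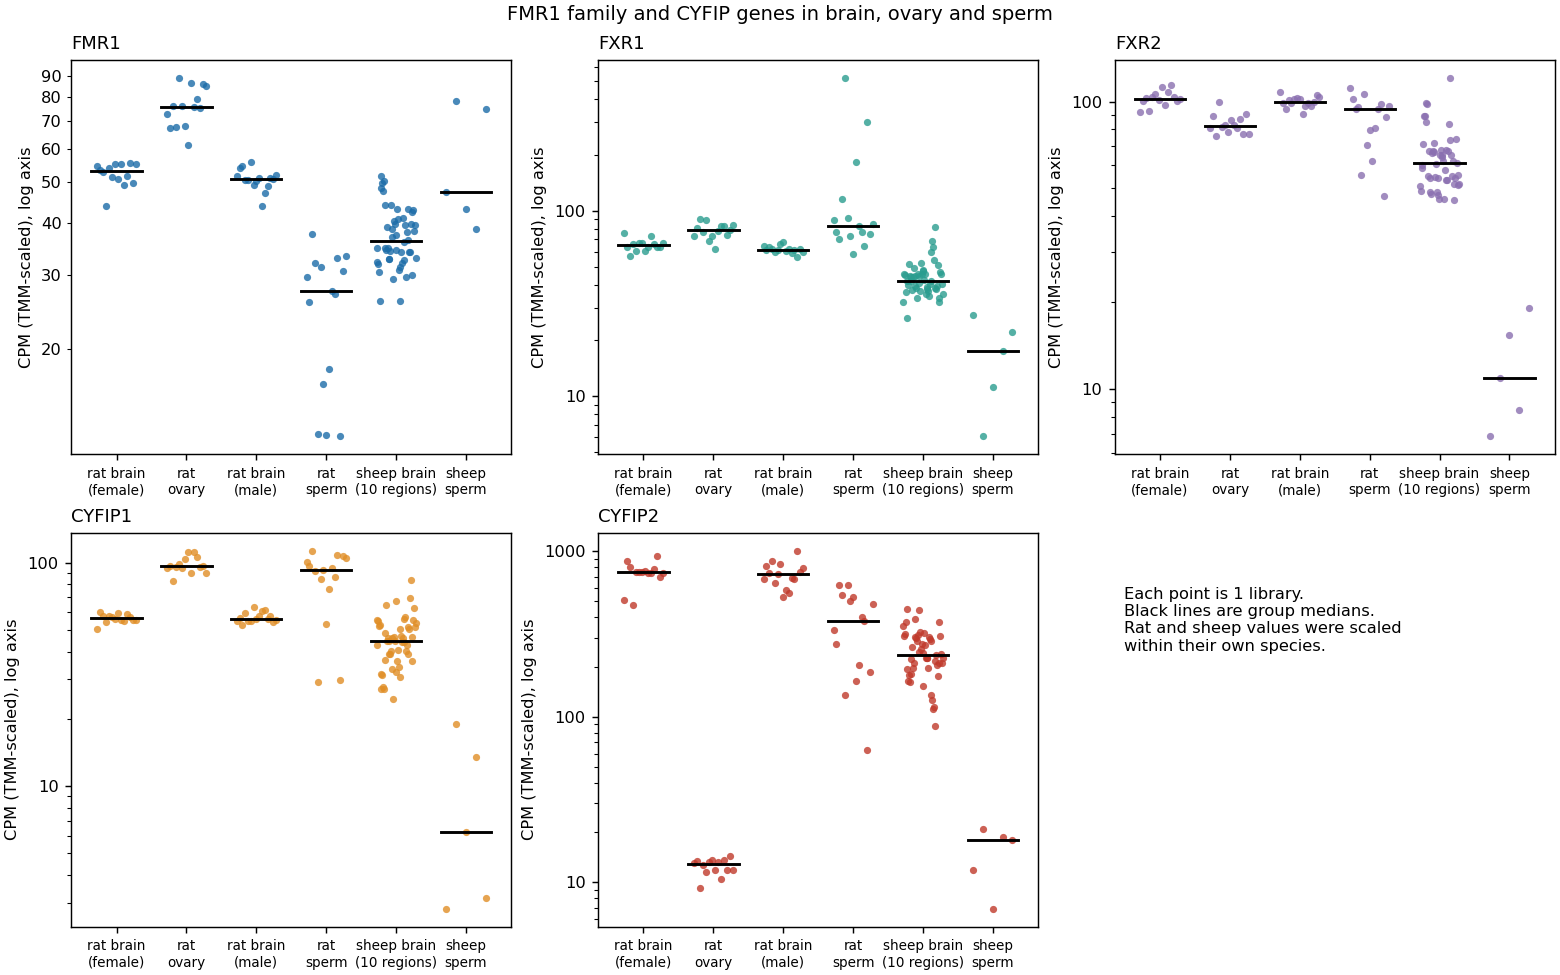
Levels of the 5 genes in rat brain, ovary and sperm and in sheep brain and sperm, as TMM-scaled CPM on log axes, with 1 point for each library. In ovary CYFIP2 lies at 9.19 to 14.5 CPM, against 474.4 to 944.0 CPM in the female brain.

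Fmr1 was 61.5, 75.95 and 88.9 CPM in 14 ovaries and 43.9, 53.2 and 55.7 CPM in the brains of the same females. The groups did not overlap, which held upward for 26.8% of genes. The log2 fold change was 0.55 ± 0.05 (SE, edgeR adjusted p 4.13e-11), or 1.46-fold. Fxr1 was 62.4, 78.5 and 90.3 CPM in ovary and 56.7, 65.1 and 76.1 CPM in brain, with overlap and a smaller rise (log2 0.27 ± 0.05, edgeR adjusted p 7.29e-06). Fxr2 was 75.8, 82.2 and 99.7 CPM in ovary and 91.7, 102.5 and 114.4 CPM in brain, a fall (log2 -0.29 ± 0.05, edgeR adjusted p 6.9e-07) whose call was lost on plain library totals (-0.02, 0.932).

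The CYFIP genes moved in opposite directions. Cyfip1 was 82.8, 96.4 and 111.8 CPM in ovary and 50.4, 56.6 and 60.3 CPM in brain, with no overlap (log2 0.80 ± 0.04, edgeR adjusted p 1.03e-16). Nipa1, which overlaps Cyfip1, averaged 25.8 CPM ± 4.12 in ovary and 68.7 ± 11.2 in brain (SD, n = 14 each), a lower mean in ovary. Cyfip2 was 9.19, 12.9 and 14.5 CPM in ovary and 474.4, 747.4 and 944.0 CPM in brain. The groups did not overlap, which held downward for 27.2% of genes, and the difference was 59.1-fold (log2 -5.88 ± 0.11, edgeR adjusted p 4.51e-29). Cyfip2 was still counted in every ovary, at no fewer than 594 counts.

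In rat sperm, FXR1 and CYFIP1 were higher and FMR1 and CYFIP2 lower than in the brains of the same males. FXR2 was not called. Over all 20480 genes, 77.0% were called, 37.8% higher and 39.2% lower, and 59.1% were also past 2-fold, as FXR1 alone was among the 5. Libraries of rats 3, 7 and 14 had the highest late spermatid and sperm markers, 6830 to 23400 CPM against 205 to 5040 CPM in the other 12. The markers alone did not set them apart, since rat 3 (6830 CPM) lay nearer to rat 10 (5040 CPM) than to rats 7 and 14. Rat 10 had 88.9 CPM of FXR1 and 111.6 CPM of FXR2, against 184.0 and 62.1 CPM in rat 3. For FXR1, FXR2 and CYFIP2, rats 3, 7 and 14 lay outside the range of the other 12. Other markers differed too. Epididymal and accessory gland markers summed to 185 to 473 CPM in these 3 and to 441 to 1017 CPM in the other 12. Microglial markers summed to 478 CPM in rat 7, 690 CPM in rat 14 and 172 CPM in rat 3, and to at most 208 CPM in the other 12. The part of these cells was not tested. Leaving out rats 3, 7 and 14 was chosen after seeing the data, so it is not independent of the levels of these genes.

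**Figure D3:**
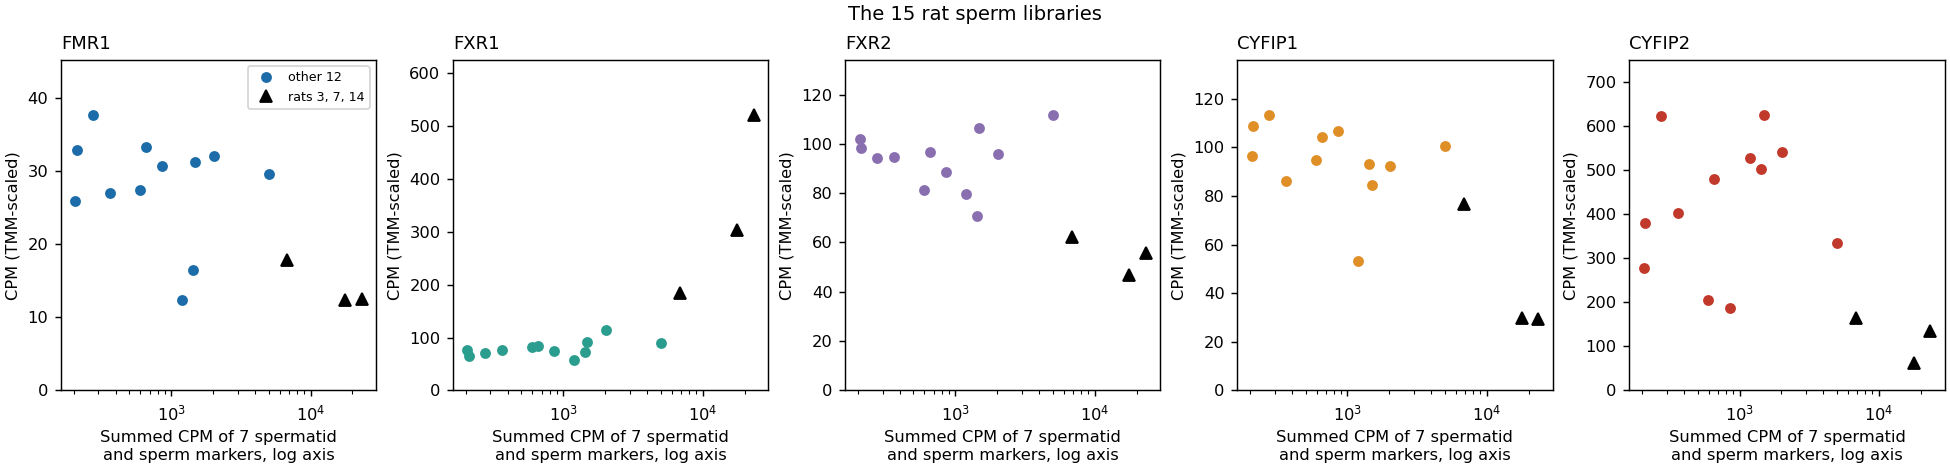
The 5 genes in 15 rat sperm libraries, as TMM-scaled CPM, against the summed CPM of the late spermatid and sperm markers on a log axis. The libraries of rats 3, 7 and 14 lie above the other 12 for FXR1 (184.0 to 520.9 CPM) and below them for FXR2 and CYFIP2.

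Fmr1 was 12.4, 27.4 and 37.7 CPM in 15 sperm libraries and 43.95, 51.0 and 55.9 CPM in brain. No sperm library reached the lowest brain, which held downward for 23.4% of genes. The log2 fold change was -0.98 ± 0.14 (SE, edgeR adjusted p 2.77e-07), or 1.97-fold, and -0.82 without rats 3, 7 and 14 (1.9e-07). The lowest libraries were those of rats 7, 17 and 14, at 12.4, 12.4 and 12.5 CPM.

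Fxr1 was 58.4, 82.7 and 520.9 CPM in sperm and 56.4, 61.8 and 67.8 CPM in brain. Rats 3, 7 and 14 had 184.0, 303.2 and 520.9 CPM, and the other 12 had 58.4 to 115.1 CPM. The log2 fold change was 1.14 ± 0.27 (SE, edgeR adjusted p 0.000333) and 0.40 without the 3 libraries (2.34e-05). Dnajc19, which overlaps Fxr1, averaged 52.8 CPM ± 17.0 in sperm and 29.4 ± 4.42 in brain (SD, n = 15 each).

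Fxr2 was 47.0, 94.4 and 111.6 CPM in sperm and 90.6, 99.6 and 107.8 CPM in brain, a difference of -0.19 ± 0.09 on the log2 scale (SE, edgeR adjusted p 0.0609). Its lowest values were those of rats 3, 7 and 14, at 62.1, 47.0 and 55.6 CPM, and without them the difference was -0.06 (edgeR adjusted p 0.368). The call depended on the fit: with the animal as a replicate block it was -0.23 (edgeR adjusted p 0.0481), and with RLE size factors -0.48 (8.06e-08).

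Cyfip1 was 29.4, 93.0 and 113.3 CPM in sperm and 52.8, 56.2 and 63.4 CPM in brain (log2 0.60 ± 0.14, edgeR adjusted p 0.000396), and the call was lost on plain library totals (0.25, 0.296). Rats 7 and 14, at 29.7 and 29.4 CPM, lay below every brain. Cyfip2 was 62.8, 380.6 and 625.2 CPM in sperm and 528.6, 726.2 and 1011 CPM in brain (log2 -0.98 ± 0.23, edgeR adjusted p 0.000265), with overlap. Rats 3, 7 and 14 had 163.7, 62.8 and 135.5 CPM, and without them the log2 fold change was -0.74 (edgeR adjusted p 0.000124).

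In sheep sperm, FXR1, FXR2, CYFIP1 and CYFIP2 were each lower than in brain, and the direction of FMR1 depended on the scale. With TMM all 5 were called, FMR1 higher and the other 4 lower by more than 2-fold. Over all 21859 genes, 83.4% were called, 37.1% higher and 46.3% lower, and 74.2% were also past 2-fold. The scale matters here: the median log2 fold change of all genes was -0.42 with TMM, and other scalings moved it: RLE by 0.25, upper quartiles by 0.73, DESeq2 by 1.47 and plain totals by -2.42.

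FMR1 was 47.4, 78.2, 43.1, 38.75 and 75.1 CPM in the sperm of sheep 687, 688, 690, 694 and 699, from 131 to 966 counts. The 50 brain libraries had 25.95, 36.3 and 51.8 CPM, so sheep 688 and 699 lay above the brain and the other 3 within it. The log2 fold change was 0.61 ± 0.11 (SE, edgeR adjusted p 1.92e-06). On plain library totals the direction turned, with 5.42 to 19.65 CPM in sperm, 24.1 to 67.8 CPM in brain and -1.84 as the log2 difference (edgeR adjusted p 8.78e-14). On plain totals without the ribosomal entries, FMR1 averaged 34.0 CPM in sperm (20.3 to 58.1). Region means on that scale ran from 34.6 CPM in basal ganglia to 70.6 CPM in cerebellum, so the sperm mean was still the lower. TMM factors were 0.114 to 0.305 in sheep sperm and 0.927 to 1.42 in sheep brain. The difference was 0.86 with RLE (edgeR adjusted p 5.65e-11), 0.86 with DESeq2 (adjusted p 1.06e-17) and 1.34 with upper quartiles (edgeR adjusted p 2.17e-19). The call was lost with the regions of each sheep summed (0.55, edgeR adjusted p 0.15) and with limma-voom (0.48, 0.0928).

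FXR1 was 27.3, 6.07, 11.2, 17.55 and 22.1 CPM in sperm and 26.3, 41.9 and 82.2 CPM in brain (log2 -1.35 ± 0.17, edgeR adjusted p 6.17e-10). Only sheep 687 lay within the brain range. With RLE the difference of FXR1 was -1.03 and with upper quartiles -0.52, under 2-fold (edgeR adjusted p 1.04e-06 and 0.00622). FXR2 was 6.85, 10.9, 15.5, 8.44 and 19.2 CPM in sperm and 45.4, 60.9 and 120.8 CPM in brain (log2 -2.37 ± 0.17, edgeR adjusted p 1.65e-18). FXR2 did not overlap between the organs, which held downward for 25.7% of genes.

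CYFIP1 was 2.82, 18.9, 6.26, 13.4 and 3.15 CPM in sperm, from 19 to 234 counts, and 24.4, 44.7 and 84.0 CPM in brain, with no overlap (log2 -2.29 ± 0.25, edgeR adjusted p 1.07e-11). The late spermatid and sperm markers of the same sperm libraries summed to 6030, 202, 2620, 690 and 6560 CPM, so sheep 688 and 694 had the most CYFIP1 and the lowest sums of these markers. Leukocyte markers summed to 13700, 158000, 82800, 28000 and 54300 CPM, and squamous markers to 8390, 150000, 36400, 8700 and 25900 CPM. Sheep 694 was below sheep 688, 690 and 699 for both. The part of these cells in CYFIP1 was not tested. CYFIP2 was 11.95, 21.0, 6.91, 18.7 and 18.0 CPM in sperm and 88.2, 238.0 and 447.0 CPM in brain. This difference, 15.4-fold without overlap, was the largest of the 5 in sheep (log2 -3.95 ± 0.22, edgeR adjusted p 4.77e-22).

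**Figure D4:**
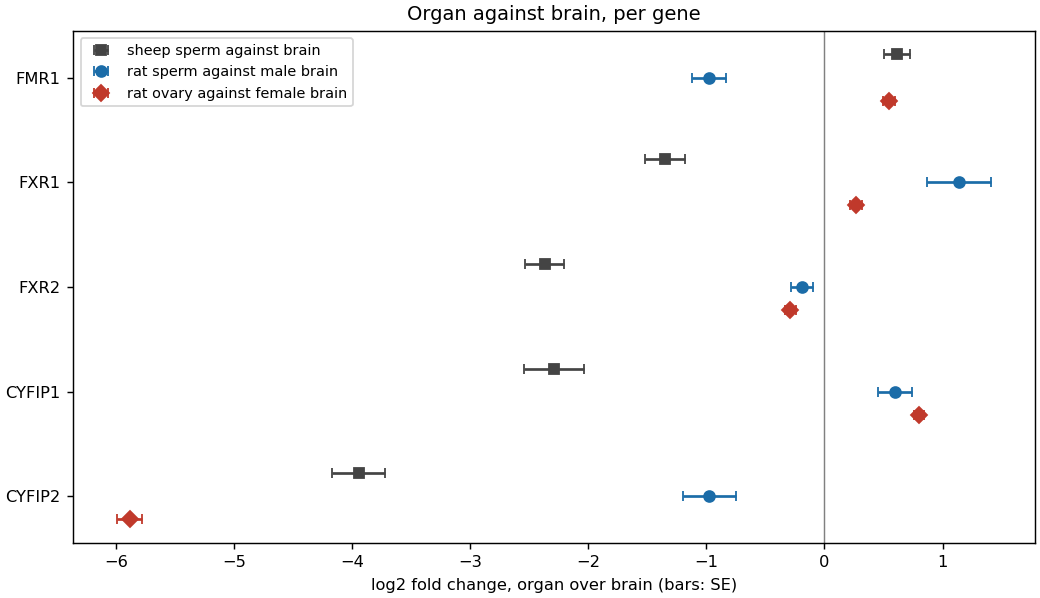
Log2 fold changes of organ over brain for the 5 genes, with SEs from the edgeR fits, in sheep sperm, rat sperm and rat ovary. CYFIP2 lies below 0 in all 3 comparisons (-3.95, -0.98 and -5.88), and FMR1 lies above 0 in sheep sperm and ovary (the former turning to -1.84 on plain totals) and below 0 in rat sperm.

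The brain-to-ovary and brain-to-sperm differences of rats were compared in 1 model, which uses the same libraries again and in which organ and sex cannot be told apart. It called 3 of the 5 genes and 67.1% of 22939 genes. FMR1 differed by 1.55 ± 0.16 on the log2 scale (SE, edgeR adjusted p 6.03e-13), being above the brain in ovary and below it in sperm. CYFIP2 differed by -4.89 ± 0.26 (SE, edgeR adjusted p 9.86e-24). FXR1 differed by -0.82 ± 0.28 (SE, edgeR adjusted p 0.00722), but by -0.115 without rats 3, 7 and 14 (0.248) and by -0.45 with the animal as a replicate block (0.113). The FXR1 call was also lost on plain totals (-0.29, edgeR adjusted p 0.553), with DESeq2 (-0.51, 0.0529) and with limma-voom (-0.125, 0.201). FXR2 (-0.07 ± 0.11, edgeR adjusted p 0.561) and CYFIP1 (0.22 ± 0.16, 0.204) were not called, and FXR2 was called without the 3 libraries (-0.20, 0.0108).

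The brain-to-sperm difference was also compared between species over 15172 shared symbols, after adding up each sheep's 10 regions. It called all 5 genes and 65.1% of those tested, and it shares the libraries of both sperm comparisons. FMR1 was 1.57 ± 0.24 higher in sheep than in rat on the log2 scale (SE, edgeR adjusted p 5.4e-07). FXR1 was lower by -2.57 ± 0.53, FXR2 by -2.22 ± 0.23, CYFIP1 by -2.92 ± 0.39 and CYFIP2 by -3.08 ± 0.46 (SE, edgeR adjusted p 6.33e-05, 4.76e-11, 2.01e-08 and 2.72e-07). The median of all genes was -0.69 and shifted by 0.91 with RLE. Leukocyte markers summed to 13700 to 158000 CPM in sheep sperm and 12.7 to 123 CPM in rat sperm, each on its own species' scale. Squamous markers summed to 8390 to 150000 CPM and 1.94 to 126 CPM. The sheep brain was a sum of 10 regions of one hemisphere, while the rat brain was whole. Species, extraction, library kit, cell make-up of the samples and the brain tissue taken cannot be told apart.

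Ratios of counts between related genes within a library do not depend on the library total. Gene length enters each ratio, so only its shift between tissues is read. Shifts within animals were tested by a two-sided permutation test that flips the sign of each animal's difference, and 6 of 9 tests passed an adjusted p of 0.05. With 5 sheep there are 32 sign patterns, of which at least 2 are as extreme as the data, so no sheep ratio could pass.

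**Figure D5:**
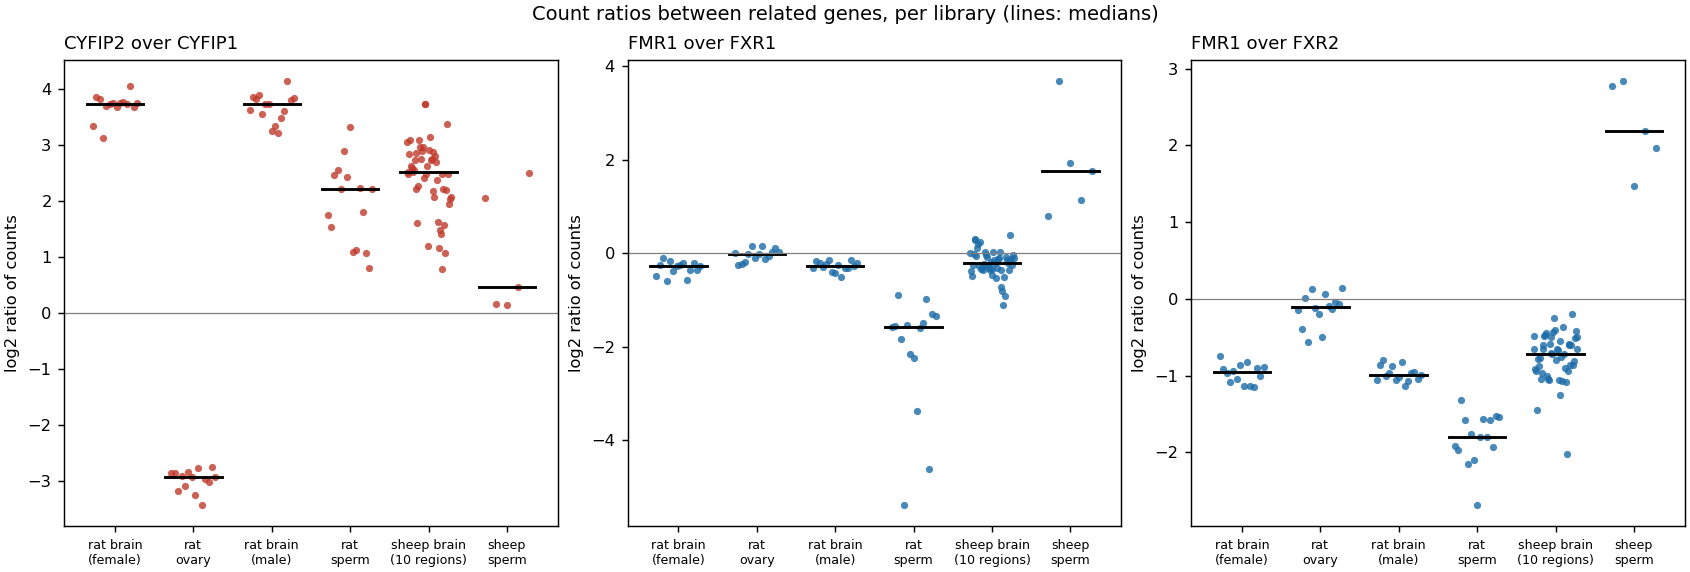
Log2 ratios of the counts of CYFIP2 over CYFIP1, FMR1 over FXR1 and FMR1 over FXR2, with 1 point for each library. CYFIP2 over CYFIP1 lies between 3.12 and 4.04 in the female rat brain and between -3.42 and -2.74 in ovary.

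The CYFIP2 to CYFIP1 log2 ratio was 3.69 ± 0.22 in the female rat brain and -2.98 ± 0.19 in ovary (SD, n = 14 each). It was lower in ovary in 14 of 14 rats, by 101-fold on average (permutation p 0.000122, adjusted p 0.00022). In males it was 3.65 ± 0.26 in brain and 1.96 ± 0.73 in sperm (SD, n = 15 each), lower in 14 of 15 rats (permutation p 0.000122, adjusted p 0.00022). In sheep the shift was -1.36 ± 1.10 (SD, n = 5), lower in 4 of 5 animals (exact permutation test, 4 of the 32 patterns as extreme).

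The FMR1 to FXR1 log2 ratio shifted by -1.84 ± 1.34 in rat sperm (SD, lower in 15 of 15 rats, permutation p 6.1e-05, the smallest possible, adjusted p 0.00022), and by -1.24 without rats 3, 7 and 14. In ovary it shifted by 0.28 ± 0.19 (SD, higher in 12 of 14 rats, permutation p 0.00061, adjusted p 0.000916). In sheep sperm it was higher in 5 of 5 animals, by 2.08 ± 1.11 (SD, exact permutation test, 2 of 32 patterns as extreme, adjusted p 0.0703). The FMR1 to FXR2 log2 ratio shifted by -0.84 ± 0.33 in rat sperm (SD, 15 of 15 rats, permutation p 6.1e-05) and by 0.83 ± 0.20 in ovary (SD, 14 of 14 rats, permutation p 0.000122). In sheep sperm it shifted by 3.00 ± 0.55 (SD, 5 of 5 animals, exact permutation test, adjusted p 0.0703). The FMR1 to FXR2 log2 ratio ran from 1.47 to 2.83 in sheep sperm and from -2.03 to -0.19 in the sheep brain, with no overlap.

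Other genes of the pathway were counted from lists, beside 83.4% of all genes called in sheep sperm, 77.0% in rat sperm and 88.6% in ovary. The counts describe each list, and nothing particular to a list is read from them. Of 10 genes of the WAVE complex and RAC1, 2 were higher and 6 lower in sheep sperm, 2 and 6 in that of rats, and 2 and 5 in ovary. The median log2 fold changes were -1.84, -0.52 and -0.415, against -0.42, -0.03 and 0.02 over all genes. WASF1, a WAVE subunit, had the largest fall in sheep sperm, from 68.2 CPM ± 34.4 (SD, n = 50) in brain to 0.313 ± 0.405 (SD, n = 5). Wasf3 fell most in the rat, from 200.9 CPM ± 43.4 in brain to 3.57 ± 3.61 in sperm (SD, n = 15 each) and from 192.0 ± 17.6 in brain to 0.672 ± 0.610 in ovary (SD, n = 14 each). WASF2, another form of the subunit, was the gene that rose most in all 3 organs, with log2 fold changes of 1.52, 2.15 and 2.36 (edgeR adjusted p 5.4e-13, 9.07e-13 and 5.33e-25), the first turning to -0.88 on plain totals, where 0 genes were higher and 10 lower in sheep sperm.

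Of 7 genes of cap-dependent translation control, 5 were higher and 1 lower in sheep sperm, the same numbers in that of rats, and 6 and 0 in ovary, with median log2 fold changes of 1.505, 1.10 and 1.34. Those called, 6 of 7 in each organ, compare with 83.4%, 77.0% and 88.6% of all genes. On plain totals 1 was higher and 4 lower in sheep sperm. EIF4EBP1, which sequesters EIF4E, rose from 3.40 CPM ± 0.818 (SD, n = 50) to 176.9 ± 124.7 (SD, n = 5) in sheep sperm, and from 3.87 ± 0.912 to 75.7 ± 10.6 in ovary (SD, n = 14 each). EIF4E itself fell in sheep sperm (log2 -1.10, edgeR adjusted p 4.8e-09). In rat sperm Mknk2, a kinase of EIF4E, rose most (log2 2.75, edgeR adjusted p 1.28e-16) and its relative Mknk1 fell (-1.07, 9.69e-10).

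Of 13 partners of FMRP in ribonucleoprotein particles, 5 were higher and 7 lower in sheep sperm, 3 and 3 in that of rats, and 5 and 4 in ovary. Their medians were -0.84, -0.03 and 0.02, and with RLE the rat sperm counts were 2 and 7. Stau2, which carries RNAs into dendrites, fell in rat sperm and ovary (log2 -2.72 and -2.55, edgeR adjusted p 1.5e-15 and 1.38e-26) and rose with TMM in sheep sperm (2.58, 3.12e-17). The helicase gene Mov10 rose in both (1.07 and 1.69, 1.01e-06 and 6.03e-17). In sheep sperm PURA fell most (log2 -3.55, edgeR adjusted p 1.43e-21) and STAU1 rose most (3.97, 1.54e-24), with a mean of 969.4 CPM and an SD of 1488 over 5 libraries.

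All 9 genes of the list of neuronal messages bound by FMRP were lower in each of the 3 organs, with median log2 fold changes of -5.50, -8.21 and -4.53, where 46.3%, 39.2% and 43.9% of all genes were called lower. The list was chosen as neuronal and neuronal markers were low in all 3 organs, so nothing about FMRP is read from this direction. App changed least in ovary (log2 -0.285, edgeR adjusted p 0.00629), and on plain totals 8 of 9 were called lower there. CAMK2A, a synaptic kinase gene, averaged 1459 CPM ± 884.1 (SD, n = 50) in sheep brain and 5.22 ± 5.25 (SD, n = 5) in sperm, and 1719 ± 205.7 and 0.750 ± 1.10 in rat brain and sperm (SD, n = 15 each). In ovary the glutamate receptor gene Grm5 fell most, from 107.3 CPM ± 22.0 to 0.00429 ± 0.0122 (SD, n = 14 each).

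Of 16 genes of joint brain and ovarian disease other than FMR1, 11 were higher and 3 lower in ovary. In rat sperm 9 were higher and 2 lower, and of the 14 tested in sheep sperm 1 was higher and 12 lower. That is 14 of 16, 11 of 16 and 13 of 14 called, beside 88.6%, 77.0% and 83.4% of all genes. Their median log2 fold changes were 0.43, 0.40 and -1.58. On plain totals the rat sperm counts were 3 and 3, and the sheep counts 0 and 14. Hsd17b4, of peroxisomal oxidation, rose most in ovary (log2 1.10, edgeR adjusted p 1.09e-20), and Hars2, a mitochondrial tRNA ligase gene, fell most in ovary and rat sperm (-1.05 and -0.95, 3.32e-19 and 1.47e-09). Pmm2, of protein glycosylation, rose most in rat sperm (log2 1.81, edgeR adjusted p 5.96e-11). In sheep sperm EIF2B1, of translation initiation, fell most (log2 -4.445, edgeR adjusted p 4.27e-22), and the single rise, EIF2B4 (0.415, 0.00688), turned to -2.095 on plain totals.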

How the data were processed

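TRIzol (sheep) or a Zymo kit (rat) gave RNA that was cleared of DNA, and Kapa (sheep) or Watchmaker (rat) kits gave stranded mRNA libraries, sequenced as 150 bp paired reads, per the labels' protocols. Per the submitters' processing notes, the authors trimmed reads with Trimmomatic 0.39, aligned them with STAR 2.7.5a to ARS-UI_Ramb_v3.0 (sheep) or GRCr8 (rat), and made the deposited gene counts with Rsubread 2.20.0 in R 4.4.2. Whether counting used strand, and how multiply aligned reads were treated, is not given in the sources used here.

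The counts of 55 sheep and 58 rat libraries were tested as deposited, with edgeR 4.0.16 in R 4.3.3 (TMM, filterByExpr, prior count 0.125, quasi-likelihood F test), and p-values were adjusted by Benjamini-Hochberg over all genes tested. SEs were taken as the absolute log2 fold change over the root of F. Alternatives were RLE and upper quartile factors, plain totals, DESeq2 1.42.0, limma-voom (limma 3.58.1), no filter, no ribosomal entries, an animal block and libraries left out. The fits recovered changes in simulated counts. These had independent libraries, few changed genes and no animal effect, so they do not test the scaling or the independence of libraries. Ratio tests (offset 0.5 counts) ran in Python 3.11.15 with every sign pattern enumerated. No libraries were near-identical.

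The members and gene lists were chosen with earlier results of these data known. Named genes are the 5 members, the called gene of each list that moved most in each direction in each organ comparison, and the 3 genes most like each member over the region means. Sheep numbers mark animals per the labels, and rat numbers were taken to do so. Same-numbered deviations correlated at a median of 0.063 between sheep sperm and brain, 0.051 between rat sperm and brain, 0.003 between ovary and brain, and 0.185 between regions of a sheep.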

Additional observations from a re-analysis of the deposited data

Results flagged for a closer look

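In basal ganglia, CYFIP1 in sheep 687 was 42.9 CPM, lower than the other 4 sheep by 0.736 of the group's range. In prefrontal cortex, FMR1 in sheep 694 was 41.2 CPM, higher than the others by 0.717 of the range. Both passed the critical share of 0.71 for 5 samples, among 55 groups tested, of which chance passes about 1 in 20.

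The differences between brain and ovary and between brain and sperm were unlike in rats for FMR1 (1.55 on the log2 scale), FXR1 (-0.82) and CYFIP2 (-4.89), by the edgeR test of the difference itself. By the same kind of test, the difference between brain and sperm was unlike in sheep and rat for FMR1 (1.57), FXR1 (-2.57), FXR2 (-2.22), CYFIP1 (-2.92) and CYFIP2 (-3.08). The FXR1 difference between ovary and sperm was -0.115 without rats 3, 7 and 14 and -0.45 with the animal as a replicate block (edgeR adjusted p 0.248 and 0.113). Each was singled out because that test passed an adjusted p of 0.05.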

How the results depend on the processing

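The counts of called members stayed within 1.5 times their value in all 96 recalculations. Leaving out 1 sheep at a time gave 8 to 12 member-by-region calls and 5 of 5 members for the other sheep counts. Of 305 organ fold changes recalculated, 285 kept direction and call, 9 lost and 10 gained a call, and 1 turned: FMR1 in sheep sperm on plain library totals (-1.84). Of 650 region fold changes, 631 kept direction and call, 10 lost and 9 gained a call. The cause was not tested. With the animal as a replicate block, the calls of FXR2 in rat sperm (-0.23) and of FXR1 between ovary and sperm (-0.45) differed from those without it, as given above. The comparison between species had no such fit. Leaving out ribosomal entries left that comparison unchanged, at 9873 genes called with and without them. Those recalculations, counted above, could only stay the same. Without the permutation paired by animal, the 3 sheep ratio tests passed (adjusted p 0.0397, 0.00893 and 0.00893). Without the low-count filter, 25339 genes were called in rat sperm, against 15768 with it. Depth limits CYFIP1 in sheep sperm most, at 19 counts.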
